A study of Mus musculus with 6 samples.

Results

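The genes of MHC class II antigen presentation were followed across the cell types of the C3(1)-Tag mouse mammary gland. The members are 7 of the 31055 counted features: the classical chains H2-Aa, H2-Ab1 and H2-Eb1, the invariant chain Cd74, the transactivator Ciita and the peptide-exchange chains H2-DMa and H2-DMb1. They are a fixed list of names, with no threshold on a measured value, and were read in macrophage-like, dendritic-like, B-cell-like, epithelial-like and endothelial-like cells. The study compared 3 disease states in female mice, all of which carried the C3(1)-Tag transgene (SV40 T antigen under the C3(1) promoter), and no mice without the transgene are in the comparison. Prepuberty was whole mammary gland at 5 weeks of age, DCIS was whole gland with ductal carcinoma in situ at 14 weeks, and Tumor was a palpable tumor at more than 18 weeks. Each state had 2 libraries of single-cell RNA sequencing, and the labels do not say whether the libraries of a state came from separate animals, so a p-value below measures only the spread between libraries.

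MHC class II molecules carry peptides from the endosome to the surface of antigen-presenting cells, where CD4+ T cells read them. H2-Aa and H2-Ab1 encode the alpha and beta chains of I-A, and H2-Eb1 the beta chain of I-E. Cd74 blocks the peptide groove until endosomal proteases degrade it, and H2-DMa and H2-DMb1 pair to form H2-M, which exchanges the remaining Cd74 fragment for other peptides. Ciita is a co-activator that binds no DNA itself and joins the RFX, CREB and NF-Y complexes on the X and Y boxes of class II promoters. Dendritic cells, B cells and macrophages are the professional presenting cells, and interferon gamma can induce the genes in epithelium and endothelium.

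On GRCm38, 5 members lay within 197 kb of chromosome 17: H2-DMa (34119541-34139101, + strand), H2-DMb1 (34153072-34160230, +), H2-Ab1 (34257689-34269419, +), H2-Aa (34282744-34287823, - strand) and H2-Eb1 (34305867-34316674, +). H2-DMb2, a close copy of H2-DMb1, ends 1.52 kb before H2-DMb1 starts, and a read can be assigned to either copy, so both are given. The promoter stretches of 3 members and of H2-DMb2 are shown because they hold the X and Y boxes on which the transactivator complex forms. They are RefSeq sequence of GRCm38.p6, printed 5′ to 3′ on the gene's strand, with the AAC of the X box and the TGATTGG of the Y box in capitals:
H2-DMb1, chr17:34153089-34153144, + strand: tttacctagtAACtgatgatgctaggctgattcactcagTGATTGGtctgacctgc
H2-DMb2, chr17:34145118-34145173, + strand: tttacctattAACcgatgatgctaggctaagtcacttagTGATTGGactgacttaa
H2-Aa, chr17:34287857-34287912, - strand: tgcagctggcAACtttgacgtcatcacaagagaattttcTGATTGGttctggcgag
H2-Eb1, chr17:34305768-34305822, + strand: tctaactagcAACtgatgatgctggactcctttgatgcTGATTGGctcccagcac
The Y box ended 56, 85, 43 and 54 bases before the RefSeq transcription start of H2-DMb1, H2-DMb2, H2-Aa and H2-Eb1. The DM beta stretches were identical at 47 of 56 bases (83.9%). The search, AAC followed by 25 or 26 bases and TGATTGG on either strand, was written after these sequences had been read, and 83 of 32851 promoters of the same length (0.253%) hold it. Neither of the 2 promoter windows listed for H2-DMa holds these letters. No sequence is printed for the remaining members.

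The 6 libraries held 23835 barcodes, of which 21564 cells were kept, with 237597373 unique molecular identifiers (UMIs) in all and a median per cell of 6551 to 13641 by library. Any pair of libraries shared 7 to 34 cell barcodes. Clusters were made without the class II genes and named from markers alone, hence the ending "-like". There were 1073 macrophage-like, 114 dendritic-like, 108 B-cell-like, 7448 epithelial-like and 2261 endothelial-like cells. Levels are counts per 1e6 UMIs (CPM), a gene's UMIs over all UMIs of a cell type in a library, and in such sums fewer expressing cells and less RNA per cell cannot be told apart. The labels give the same overnight digestion for all tissue, whereas the study's methods give a tumor dissociation kit for the tumors. If the methods hold, dissociation and the Tumor state cannot be told apart. The methods also give Tumor 2 a later version of the library kit.

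Classical chains and Cd74 separated the presenting cell types from the rest. Cd74 and Ciita lie outside the class II region, on GRCm38 chromosome 18 (60803848-60812652, + strand) and chromosome 16 (10480059-10528418, + strand), and all 7 members are annotated as protein-coding. The median Cd74 level over libraries was 6402 CPM in dendritic-like cells, 11013 CPM in B-cell-like cells and 3212 CPM in macrophage-like cells, against 24.4 CPM in endothelial-like and 6.04 CPM in epithelial-like cells. Medians for dendritic-like cells are over the 4 libraries with at least 10 cells and for B-cell-like cells over 2. The lowest macrophage-like library (2081 CPM) lay above the highest endothelial-like library (154 CPM), and the endothelial-like range (5.13 to 154 CPM) overlapped the epithelial-like range (0.760 to 14.7 CPM). H2-Ab1 kept the same split, at 1402 CPM in macrophage-like, 10.6 CPM in endothelial-like and 12.8 CPM in epithelial-like cells, and the last 2 ranges overlapped.

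**Figure D1:**
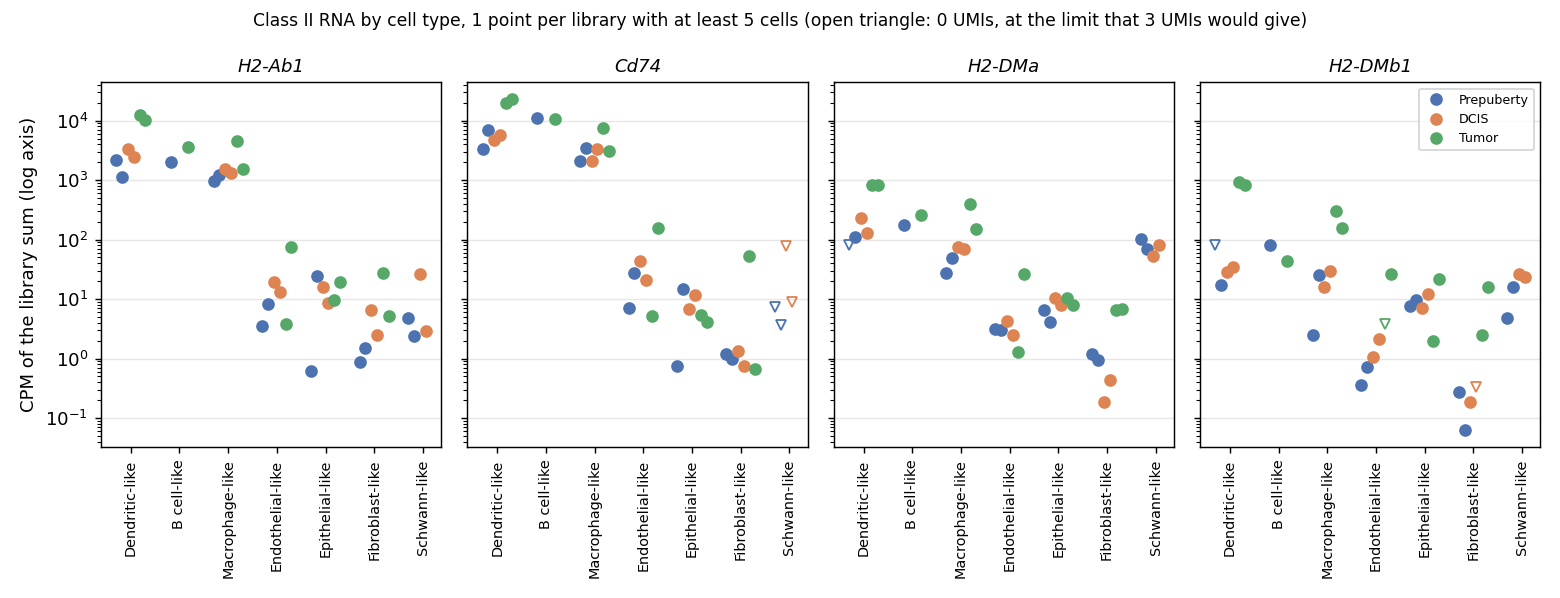
Level of H2-Ab1, Cd74, H2-DMa and H2-DMb1 (CPM, log axis) in 7 cell types, 1 point for each library with at least 5 cells, colored by state; an open triangle is a library with 0 UMIs, drawn at the limit that 3 UMIs in that library would give. Cd74 lies between 2081 and 23241 CPM in dendritic-like, B-cell-like and macrophage-like cells and at or below 154 CPM in the other types, whereas H2-DMa in Schwann-like cells (52.2 to 103 CPM) overlaps its macrophage-like range.

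The H2-M chains did not follow that split. H2-DMa was measured at 52.2 to 103 CPM in the Schwann-like cells of 4 libraries (129 UMIs) while H2-Aa, H2-Eb1, Cd74 and Ciita were at 0 UMIs there. H2-DMb1 was also read as a share of the UMIs of H2-DMb1 and Cd74 together. In macrophage-like cells that share was 0.117% to 4.80% and in T-cell-like cells 0% in every library with a value. In epithelial-like cells it was 90.9% and 39.7% for the Prepuberty libraries, 51.1% and 50.1% for the DCIS libraries and 26.8% and 84.2% for Tumor 1 and 2, higher than in macrophage-like cells of every library. The peptide-exchange chain thus made up a larger part of the pair in the epithelium, although all of these epithelial values rest on few UMIs per cell. In fibroblast-like cells of Tumor 2 the share was 96.0%. No profile of free RNA was measured, and its part in these values was not tested.

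In macrophage-like cells the classical chains and Cd74 were abundant in every state and passed no test between states with all libraries in the fit. H2-Aa measured 1213 and 1156 CPM in the Prepuberty libraries, 1755 and 1663 CPM in DCIS and 3276 and 1293 CPM in Tumor 1 and 2. H2-Ab1 measured 964, 1218, 1537, 1294, 4618 and 1511 CPM in the same order. Tumor 1 was the highest library for both chains, and Tumor 2 lay within the range of the 4 gland libraries for both. Cd74 measured 2105 and 3408 CPM in Prepuberty, 2081 and 3333 CPM in DCIS and 7669 and 3091 CPM in Tumor, with the same library standing above. H2-Eb1 was low in all 6 libraries, at 8.44 to 49.7 CPM.

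In Tumor against Prepuberty, the log2 fold change was 0.63 (SE 0.51) for H2-Aa, 1.2 (SE 0.56) for H2-Ab1, 0.61 (SE 0.73) for H2-Eb1 and 0.68 (SE 0.52) for Cd74. Without Tumor 1, each of these estimates changed sign: -0.50 for H2-Aa, -0.14 for H2-Ab1, -0.42 for H2-Eb1 and -0.43 for Cd74. These values had SEs of 0.34 to 0.76 and none passed. Without Tumor 2, H2-Ab1 passed (log2 fold change 1.88, SE 0.33, edgeR adjusted p = 0.0245), so its direction and its call turned on which tumor was kept. On the CPM scale Tumor 2 lay above both Prepuberty libraries for H2-Aa and H2-Ab1 and between them for H2-Eb1 and Cd74.

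The H2-M chains were higher in the macrophage-like cells of both tumors. H2-DMb1 measured 2.46 and 25.6 CPM in Prepuberty (1 and 12 UMIs), 15.9 and 30.1 CPM in DCIS (24 and 25 UMIs) and 303 and 156 CPM in Tumor (688 and 211 UMIs). Both tumors lay above all 4 gland libraries. H2-DMb1 rose by 3.70 on the log2 scale (SE 0.72) in Tumor against Prepuberty (edgeR quasi-likelihood test, adjusted p = 0.0202) and by 2.85 (SE 0.64) against DCIS (adjusted p = 0.0407).

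H2-DMa, its alpha-chain partner, measured 27.1 and 49.0 CPM in Prepuberty, 75.5 and 69.9 CPM in DCIS and 392 and 149 CPM in Tumor, again with no overlap between tumors and glands. It rose by 2.54 (SE 0.58) against Prepuberty (edgeR, adjusted p = 0.0389), and its log2 fold change against DCIS was 1.41 (SE 0.53, adjusted p = 0.138). The paralog H2-DMb2 measured 0 and 4.26 CPM, 0.662 and 3.62 CPM, and 40.9 and 25.9 CPM in the 3 states. H2-DMb2 rose against DCIS (log2 fold change 3.64, SE 0.82, edgeR adjusted p = 0.0417) and did not pass against Prepuberty. With both DM beta genes summed, so that the split of reads does not matter, the levels were 2.46, 29.9, 16.6, 33.8, 344 and 182 CPM in the same order of libraries.

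**Figure D2:**
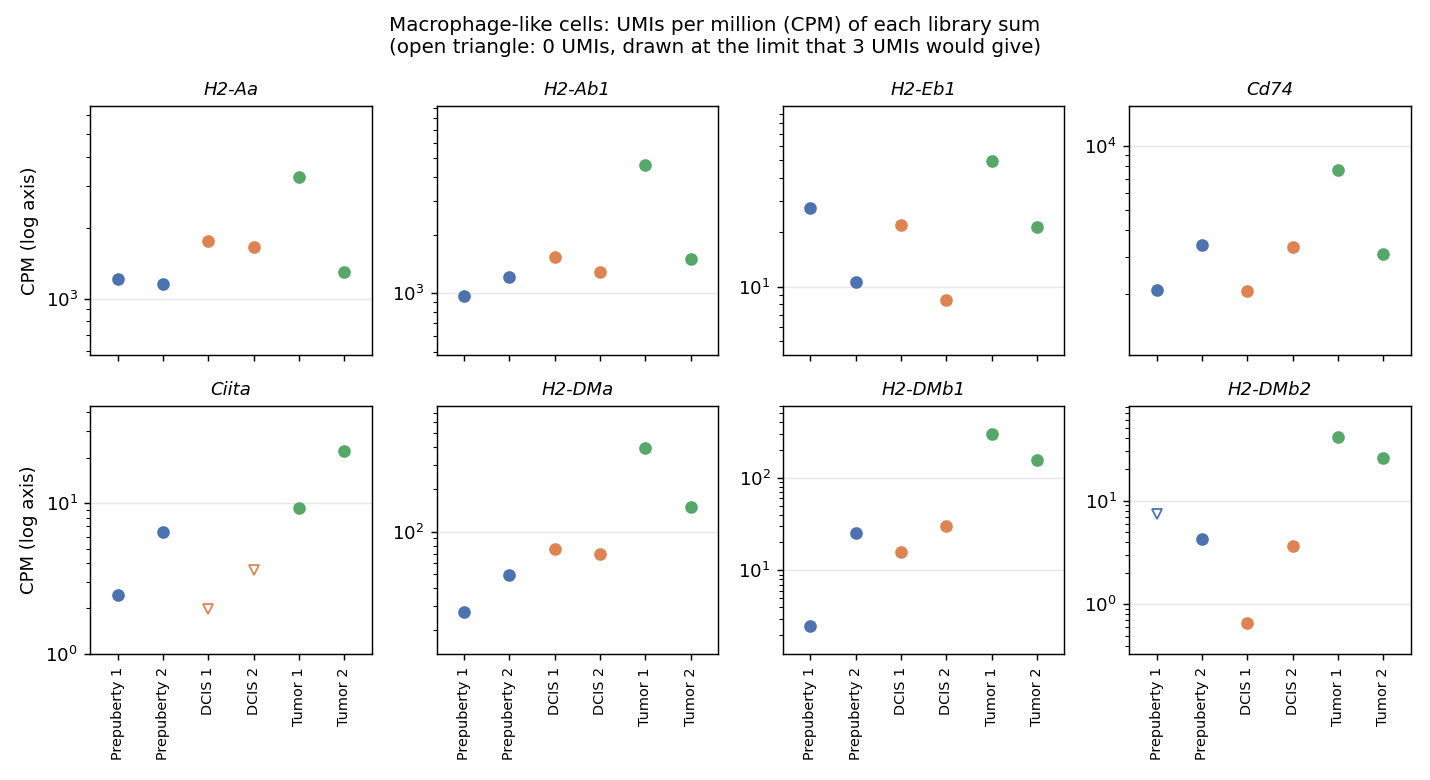
Level of the 7 members and of H2-DMb2 in macrophage-like cells (CPM, log axis, 1 panel per gene) in the 2 libraries of each state, which are told apart by color; an open triangle is a library with 0 UMIs at the limit that 3 UMIs in that library would give. H2-DMa and H2-DMb1 are above every gland library in both tumors (149 and 392 CPM, 156 and 303 CPM), whereas H2-Aa, H2-Ab1 and Cd74 stand out in Tumor 1 only.

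Ciita, the transactivator of the pathway, was counted with few UMIs. It had 1 and 3 UMIs in Prepuberty, 0 and 0 in DCIS and 21 and 30 in Tumor. Pooled, 51 of 3626431 UMIs in Tumor stood against 0 of 2339611 in DCIS, at least 11-fold higher with 3 UMIs over both DCIS libraries as the limit (edgeR, adjusted p = 0.0387). Against Prepuberty it measured 9.24 and 22.2 CPM against 2.46 and 6.40 CPM and did not pass (adjusted p = 0.468). Ciita passed the filter on low counts through its Tumor libraries alone, so its call against DCIS only describes the counts.

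Of the 7 members, 2 passed in Tumor against DCIS (Ciita and H2-DMb1) and 2 in Tumor against Prepuberty (H2-DMa and H2-DMb1), where 3.8% and 4.12% of all 7549 genes tested passed. Only genes that were higher are at issue here, and 0.967% and 1.01% of all genes passed as higher. Ciita entered the fit through its Tumor counts alone, so its call adds no support to the count against DCIS. In DCIS against Prepuberty, 0 of 7 passed by edgeR, with 1 (Ciita) at an unadjusted p under 0.05 and 0 by DESeq2, and 0.0795% of all genes passed. The median log2 fold change of the 7 members was 0.57, 0.66 and 1.2 in DCIS against Prepuberty, Tumor against DCIS and Tumor against Prepuberty, beside 0.01, 0.04 and 0.09 over all genes tested.

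The calls rest on 2 libraries a state, so each library matters. H2-DMb1 lost its call against DCIS without DCIS 1 (adjusted p = 0.309), DCIS 2 (adjusted p = 0.165) or Tumor 1 (adjusted p = 0.052), and against Prepuberty without Prepuberty 1 (adjusted p = 0.122). H2-DMa kept its call against Prepuberty without Tumor 2 (adjusted p = 0.0113) and lost it without each of the other 5 libraries (adjusted p = 0.0551 to 0.263). Ciita lost its call against DCIS without DCIS 1 (adjusted p = 0.324) or DCIS 2 (adjusted p = 0.165), was not tested without Tumor 2, and had no adjusted p by DESeq2. The log2 fold change of H2-DMb1 stayed between 1.99 and 3.38 against DCIS and between 2.83 and 5.97 against Prepuberty over the libraries left out. That of H2-DMa ranged from 0.22 to 2.04 against DCIS and from 1.36 to 3.17 against Prepuberty. Both of its lowest values were without Tumor 1.

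At equal depth, more macrophage-like cells of the tumors held an H2-DMb1 UMI. With each cell thinned to 2000 UMIs, an H2-DMb1 UMI was seen in 1.37% and 3.95% of cells in Prepuberty, 2.97% and 4.80% in DCIS and 34.4% and 17.7% in Tumor. The thinned H2-DMa shares were 4.11% and 6.58%, 13.9% and 11.2%, and 45.3% and 26.6%. Without thinning the H2-DMb1 shares were 1.09% and 7.95%, 8.47% and 11.5%, and 50.1% and 39.4%, and thinning left out 8 to 37 cells a library. A Cd74 UMI was seen in 54.8% to 73.8% of the thinned cells of every library, with the lowest share in Tumor 2 and the highest in Tumor 1. In fibroblast-like cells, taken as a type that should lack these genes, the thinned H2-DMb1 share was 0% to 3.47%, the highest in Tumor 2, at a median of 6946 to 14375 UMIs a cell against 3878 to 9021 in macrophage-like cells.

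The H2-M chains also passed in the fibroblast-like cells of the tumors, at far lower levels, in a fit added after the data were seen. H2-DMb1 measured 0.276 and 0.0623 CPM in Prepuberty (6 and 1 UMIs), 0.188 and 0 CPM in DCIS (1 and 0 UMIs) and 2.52 and 15.7 CPM in Tumor (7 and 72 UMIs). Both tumors lay above all gland libraries. It rose against Prepuberty by 5.01 (SE 1.12, edgeR adjusted p = 0.0371) and passed against the single UMI of DCIS (adjusted p = 0.0361), where the ratio was 155 with a 95% counting interval of 27.1 to 6216.

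H2-DMa measured 1.2 and 0.934 CPM, 0.188 and 0.435 CPM, and 6.47 and 6.76 CPM in the same cells and rose against DCIS by 3.59 (SE 0.75, adjusted p = 0.0259). Of 4 members tested there, 0, 2 and 1 passed in DCIS against Prepuberty, Tumor against DCIS and Tumor against Prepuberty, where 0%, 12.4% and 8.23% of all 12128 genes passed. DESeq2 called 0, 2 and 4, and in DCIS against Prepuberty 0 had an unadjusted p under 0.05. In Tumor against Prepuberty the log2 fold changes of H2-Aa (4.47, SE 1.53) and H2-Ab1 (3.46, SE 0.96) were above that of H2-DMa (2.16, SE 0.63). None of these passed by edgeR (adjusted p = 0.117, 0.0685 and 0.0786). With a library left out, 0 members passed in each tumor comparison without either Prepuberty or either DCIS library. The rise of the H2-M chains was therefore called in the type taken as background as well.

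Levels of leukocyte genes and of the transgene also differed between libraries in the fibroblast-like cells. Of 10 leukocyte genes 5 were tested, and Coro1a rose against Prepuberty (log2 fold change 3.73, SE 0.90, edgeR adjusted p = 0.0467), while C1qc (4.90), C1qa (4.02), Tyrobp (3.22) and Fcer1g (1.26) did not pass. None of the 5 passed against DCIS by edgeR, with 1 (Coro1a) at an unadjusted p under 0.05. The summed level of the 10 genes was 15.3 and 3.55 CPM in Prepuberty, 24.7 and 8.92 CPM in DCIS and 84.8 and 15.3 CPM in Tumor, with 0 to 2 genes at 0 UMIs in a library. Tumor 1 stood above all gland libraries, whereas Tumor 2, which held most of the H2-DMb1 UMIs, lay within their range. The T antigen transgene measured 89.9 and 57.3 CPM in the tumors against 0 to 0.753 CPM in the glands. Whether the H2-M UMIs came from the fibroblast-like cells themselves was not tested.

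The make-up of the macrophage-like class differed between states, so the clusters were read on their own. Cluster i3 (leading genes Pf4 and Folr2) held 46.7% and 36.4% of the class in Prepuberty and 12.7% and 9.09% in Tumor. Within cluster i0 (C1qa and Trem2), H2-DMb1 measured 10.6 and 14.0 CPM in Prepuberty, 31.0 and 46.7 CPM in DCIS and 369 and 223 CPM in Tumor, and rose against both (log2 fold changes 4.43 and 2.54, edgeR adjusted p = 0.023 and 0.0245). Within cluster i1, whose leading genes are the monocyte genes Ly6c2 and Fcgr1, it measured 0 and 23.8 CPM, 4.94 and 8.13 CPM, and 700 and 469 CPM, and rose against both (adjusted p = 0.00505 and 0.00334).

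The remaining clusters were not alike. In cluster i4 (Mmp12 and Gpnmb), H2-DMb1 measured 0 and 108 CPM in Prepuberty, 4.74 and 29.1 CPM in DCIS and 81.1 and 58.1 CPM in Tumor, and passed no test (adjusted p = 0.913 and 0.386). In cluster i3 it had 0 UMIs in both Prepuberty libraries and 45.5 and 369 CPM in the tumors, with too few UMIs for the fit. Cluster i7 (C1qa and Fcrls) held 14.6% and 20.5% of the class in the tumors and 2.17% to 14.8% in the glands. It measured 12.8 CPM of H2-DMb1 in Prepuberty 2 (1 UMI), 0 in DCIS 1 and 199 and 60.7 CPM in Tumor 1 and 2, had under 10 cells in the other libraries and was not fitted alone. Cluster i12 (Mmp9 and Acp5) reached 10 cells in Tumor 2 only, at 38.3 CPM. An unnamed myeloid cluster, i11, with Retnla and Clec10a among its leading genes, held H2-DMb1 at 68.0 CPM in DCIS 1 and at 1431 and 1139 CPM in Tumor 1 and 2, and had no other library with 10 cells. The macrophage marker Csf1r moved with the state as well, with a UMI in 20.7% and 21.6% of the class in Prepuberty, 35.2% and 40.5% in DCIS and 65.8% and 85.6% in Tumor. Its part in the result was not tested.

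**Figure D3:**
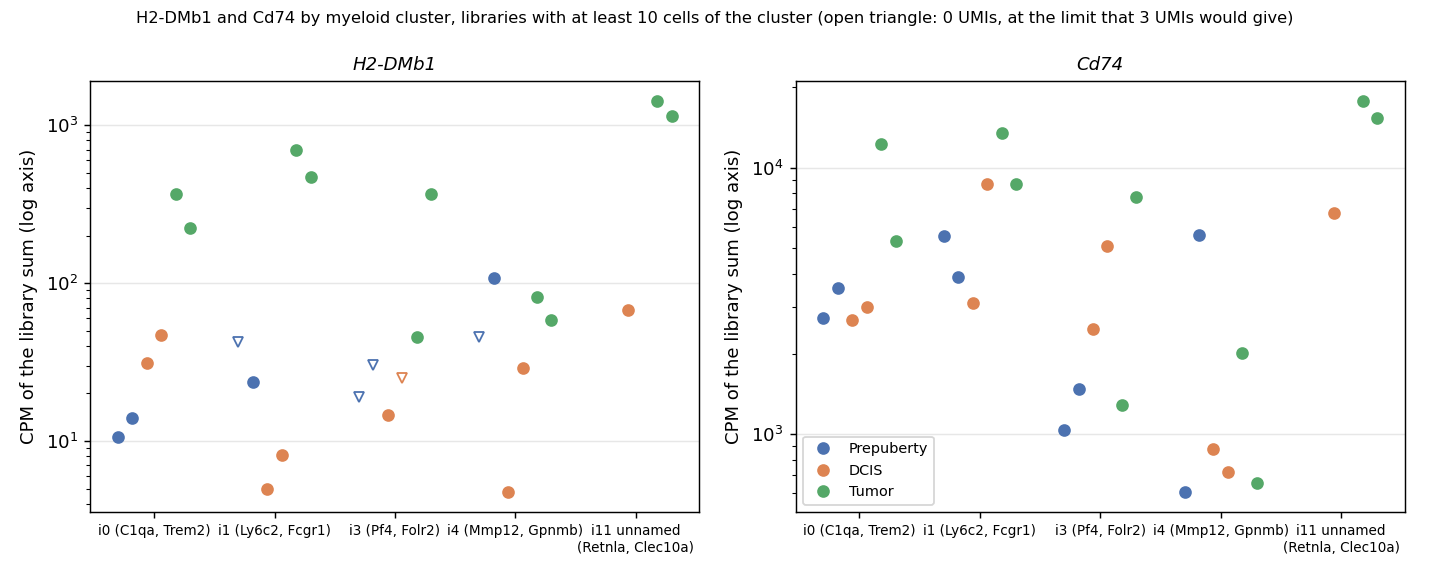
Level of H2-DMb1 and Cd74 (CPM, log axis) in 5 myeloid clusters, 1 point for each library with at least 10 cells of the cluster, colored by state; an open triangle is a library with 0 UMIs at the limit that 3 UMIs would give. Clusters i7 and i12 are not plotted. In clusters i0 and i1 both tumors are above all gland libraries for H2-DMb1 (223 and 369 CPM, 469 and 700 CPM), and in cluster i4 they lie between the 2 Prepuberty libraries.

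The rest of the pathway was read from lists given by name. Among class II transcription genes, 6 of 7 were tested in macrophage-like cells and 0 passed in either tumor comparison. Creb1 had log2 fold changes of -0.35 (SE 0.43) and -0.67 (SE 0.45) against DCIS and Prepuberty. Of 9 interferon gamma signaling genes, 8 were tested and 2 fell against Prepuberty: Jak2, a kinase of the receptor, by 2.01 (edgeR, adjusted p = 0.0456), and Socs1, a feedback inhibitor of the pathway, by 2.47 (adjusted p = 0.0241). None of the 8 passed against DCIS.

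Of 10 genes of endosomal processing and turnover, 9 were tested and 1 passed. Ctsl, a cysteine protease that can degrade Cd74, measured 651 and 708 CPM in Prepuberty, 2725 and 2208 CPM in DCIS and 443 and 361 CPM in Tumor. It fell by 3.17 in Tumor against DCIS (SE 0.41, edgeR adjusted p = 0.00603), and the tumors lay below all gland libraries. Of 4 co-stimulation genes, 3 were tested and Cd40 fell against Prepuberty by 2.40 (SE 0.57, adjusted p = 0.0456). Of 10 leukocyte genes, 8 were tested and Laptm5, a lysosomal membrane protein, rose against Prepuberty by 1.85 (SE 0.42, adjusted p = 0.0366). Ctsl kept its call with any 1 library left out. The calls of Jak2, Cd40 and Laptm5 were kept in 1 of 6 such fits (without Tumor 1), that of Socs1 in 3 of 6 and that of H2-DMb2 in 2 of 6, with no change of direction.

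Dendritic-like cells were few, with 8 and 19 in Prepuberty, 28 and 27 in DCIS and 27 and 5 in Tumor, so the results here come from a fit with a lower limit of 5 cells that was added after the cell numbers were known. H2-DMb1 measured 0 and 17.3 CPM in Prepuberty (0 and 2 UMIs), 28.6 and 34.6 CPM in DCIS (5 UMIs each) and 926 and 837 CPM in Tumor (149 and 17 UMIs). Both tumors lay above all gland libraries. It rose by 4.55 against DCIS (SE 0.56, edgeR adjusted p = 0.00161). In this fit H2-DMb1 passed the filter on low counts through its Tumor libraries alone. Against the 2 pooled UMIs of Prepuberty the ratio was 69.7, with a 95% counting interval of 19.0 to 581 (edgeR, adjusted p = 0.00212).

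H2-DMb2 moved alongside, from 0 and 17.3 CPM in Prepuberty and 17.2 and 13.8 CPM in DCIS to 441 and 443 CPM in Tumor, and rose in both comparisons (adjusted p = 0.00442 and 0.00234). H2-DMa measured 0 and 112 CPM, 235 and 131 CPM, and 826 and 837 CPM in the 3 states, and rose against DCIS by 1.94 (SE 0.59, adjusted p = 0.0488) and against Prepuberty by 3.48 (SE 0.70, adjusted p = 0.0175). The complete H2-M pair was thus higher in the dendritic-like cells of both tumors. With a library left out, the log2 fold change of H2-DMa against Prepuberty ranged from 2.84 to 9.12, so its size is not well determined.

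Cd74 and the I-A beta chain passed as well. Cd74 measured 3364 and 7061 CPM in Prepuberty, 4810 and 5743 CPM in DCIS and 19919 and 23241 CPM in Tumor. It rose by 1.79 against DCIS (SE 0.52, edgeR adjusted p = 0.0418) and by 2.06 against Prepuberty (SE 0.52, adjusted p = 0.0369). H2-Ab1, the I-A beta chain, measured 2161 and 1149 CPM, 3329 and 2442 CPM, and 12669 and 10193 CPM, and rose by 1.75 and 2.80 (SE 0.50 and 0.53, adjusted p = 0.0408 and 0.0161).

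H2-Aa, the partner chain of H2-Ab1, passed neither tumor comparison in this fit. With the replicate number added as a block, it passed against Prepuberty. It measured 4376 and 2653 CPM in Prepuberty, 10393 and 7154 CPM in DCIS and 11153 and 12014 CPM in Tumor, and its log2 fold change was 0.15 (SE 0.50) against DCIS and 1.71 (SE 0.51, adjusted p = 0.0589) against Prepuberty. H2-Eb1 had 3 UMIs in Prepuberty, 25 in DCIS and 37 in Tumor, and rose against Prepuberty at a ratio of 10.4 with a 95% counting interval of 3.28 to 52.5 (edgeR, adjusted p = 0.0278). Ciita was below the limit for the fit. Its 15 UMIs in the tumors stood against 1 in the Prepuberty libraries and none in the DCIS libraries, at least 8.81-fold higher than in DCIS with 3 UMIs over both DCIS libraries as the limit.

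**Figure D4:**
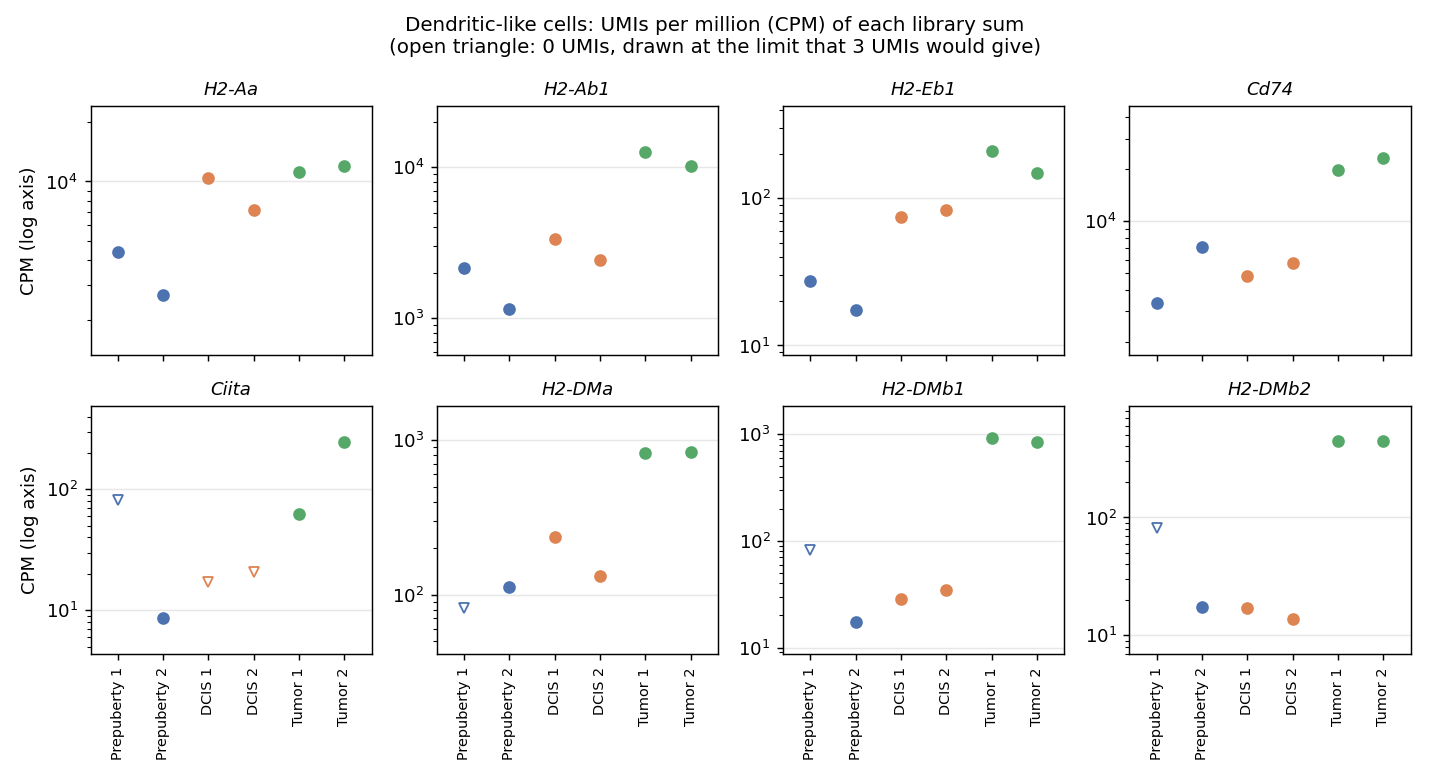
Level of the 7 members and of H2-DMb2 in dendritic-like cells (CPM, log axis, 1 panel per gene) in the 2 libraries of each state, which are told apart by color; an open triangle is a library with 0 UMIs at the limit that 3 UMIs in that library would give. H2-Ab1, Cd74, H2-DMa, H2-DMb1 and H2-DMb2 are above every gland library in both tumors, and H2-Aa in DCIS (10393 and 7154 CPM) comes close to the tumors.

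Of the 6 members tested, 4 passed in Tumor against DCIS and 5 in Tumor against Prepuberty, all higher, where 13.5% and 8.57% of all 1913 genes tested passed, 5.7% and 3.76% as higher. In DCIS against Prepuberty, 0 of 6 passed by edgeR, with 3 at an unadjusted p under 0.05 and 0 by DESeq2, and 0 of all genes passed (0%). By DESeq2, 3 members passed in Tumor against DCIS and 4 in Tumor against Prepuberty. The median log2 fold change of the 6 members was 1.77 and 3.03 in the 2 tumor comparisons beside -0.01 and 0.07 over all genes tested. H2-DMb1 passed in both tumor comparisons with any single library left out (adjusted p at most 0.0193 and 0.0119), whereas the other members were less stable. Against DCIS 1 member passed without DCIS 1, DCIS 2 or Tumor 1 and 2 without Prepuberty 2, and against Prepuberty 1 passed without Tumor 1, 2 without Prepuberty 2 and 3 without DCIS 1.

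The kind of dendritic-like cell also differed between states. A UMI of Ccr7, Fscn1 or Ccl22, genes of mature migratory dendritic cells, was found in 8 of 8 and 19 of 19 cells in Prepuberty, 27 of 28 and 27 of 27 in DCIS, and 14 of 27 and 0 of 5 in Tumor 1 and 2. Xcr1, a marker of cross-presenting cells, was seen in 9 of 27 and 1 of 5 Tumor cells against at most 1 of 28 in a gland library. Clec9a, another such marker, was seen in 3 of 27 and 0 of 5 Tumor cells and in none of the glands, and Batf3, a factor that these cells need, in 40.7% and 60% of Tumor cells and 50% to 75% of gland cells. Cd209a, a marker of monocyte-related dendritic cells, was seen in 4 of 5 Tumor 2 cells. Among Tumor 1 cells with a Ccr7, Fscn1 or Ccl22 UMI, H2-DMb1 measured 747 CPM (61 UMIs), and among those without it measured 1110 CPM (88 UMIs). Among gland cells with a UMI of these genes the highest library value was 34.6 CPM. This comparison has 1 tumor library and no test, and the part of the kind of cell in the result was not tested.

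Among the pathway lists in dendritic-like cells, the co-stimulatory ligands Cd86 and Cd80 fell against DCIS by 2.13 and 2.05 (edgeR, adjusted p = 0.016 and 0.0361), 2 of 3 tested of the 4 listed. Among the interferon gamma signaling genes reported here, the receptor chain Ifngr1 rose against DCIS by 2.01 (adjusted p = 0.0449) and the transcription factor Irf1 fell against Prepuberty by 2.70 (adjusted p = 0.0303). The asparaginyl endopeptidase Lgmn fell in both, 1 of 6 tested from the processing list, by 2.78 and 2.50. Laptm5 rose in both, 1 of 5 leukocyte genes tested. With a library left out these calls were kept in 1 (Ifngr1 against DCIS) to 5 of 6 fits, and the directions held. No class II transcription gene passed the filter on low counts.

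**Figure D5:**
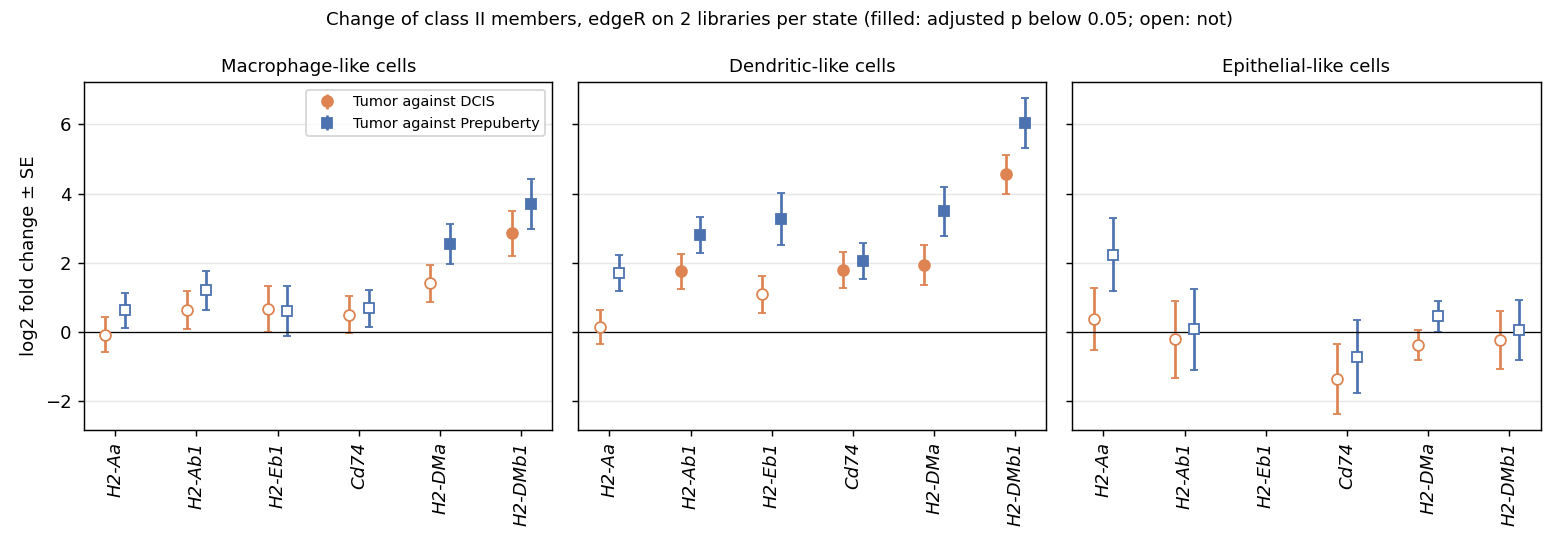
Log2 fold change (± SE, edgeR, 2 libraries a state) of 6 members in macrophage-like, dendritic-like and epithelial-like cells, for Tumor against DCIS (circles) and Tumor against Prepuberty (squares); filled symbols passed at an adjusted p under 0.05, and H2-Eb1 was not tested in epithelial-like cells. Among the members shown, H2-DMb1 has the highest values in macrophage-like (2.85 and 3.70) and dendritic-like cells (4.55 and 6.04) and is near 0 in epithelial-like cells (-0.23 and 0.06).

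B-cell-like cells could be described in 2 libraries, Prepuberty 2 (66 cells) and Tumor 1 (36 cells), with 0 to 3 cells in the others, so no test was made. Cd74 measured 11223 and 10803 CPM in these libraries, H2-Aa 3340 and 3611 CPM, and H2-Ab1 2033 and 3640 CPM. Ciita measured 55.8 and 14.5 CPM (7 and 1 UMIs). The H2-M beta UMIs of these cells were assigned mostly to H2-DMb2, with 31 and 27 UMIs against 10 and 3 for H2-DMb1, the reverse of macrophage-like cells, where Tumor 1 had 93 against 688. The Tumor 1 class also held plasmacytoid dendritic markers, with Siglech and Ccr9 each in 27.8% of its cells and in 0% in Prepuberty 2, and Cd79a, a B-cell receptor subunit, in 69.4% and 80.3%.

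Epithelial-like cells carried class II RNA at a low level in every state. H2-Ab1 measured 0.608 and 24.7 CPM in Prepuberty, 16.0 and 8.49 CPM in DCIS and 9.68 and 19.1 CPM in Tumor, so the Prepuberty libraries spanned the others. Cd74 measured 0.760, 14.7, 6.76, 11.9, 5.32 and 4.09 CPM in the same order. H2-DMb1 measured 7.60, 9.63, 7.06, 11.9, 1.94 and 21.8 CPM, and the 2 tumors were the lowest and the highest of the 6 libraries. H2-DMa was the steadiest member, at 4.19 to 10.4 CPM.

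In epithelial-like cells 6 of 7 members were tested and 0 passed by edgeR in DCIS against Prepuberty, Tumor against DCIS and Tumor against Prepuberty, where 0%, 1.1% and 5.97% of all 13391 genes passed. At an unadjusted p under 0.05 there were 0, 1 and 1 (Ciita in both), and DESeq2 called 0 in each. Ciita had 51 of 70116286 UMIs in the tumors (31 and 20), 3 of 32370303 in the DCIS libraries and 0 of 15553990 in the Prepuberty libraries. The tumors were at least 3.77-fold higher than Prepuberty with 3 UMIs over both Prepuberty libraries as the limit, and its adjusted p was 0.0938. The median log2 fold change of the 6 members was 0.73, -0.21 and 0.27 beside 0.01, 0.08 and 0.09 over all genes.

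Single libraries and leukocyte RNA touched these values. Without Tumor 2, H2-DMb1 fell against both DCIS and Prepuberty, and H2-Aa rose against Prepuberty. In Prepuberty 2, all 59 H2-Ab1 UMIs came from the 41 cells of cluster 9 (381 CPM), and in Prepuberty 1 the 17 cells of that cluster had 0. Cells with 2 or more UMIs of 10 leukocyte genes made up 0.498% to 10.2% of epithelial-like cells, the most in Tumor 1, and held 0% to 25.2% of the UMIs of H2-Aa, H2-Ab1 and Cd74. With those cells left out, 0 members passed in each comparison. A UMI of H2-DMb1 was seen in 4.18% of thinned Tumor 2 cells and in 0.185% of thinned Tumor 1 cells, or 29.8% and 2.90% without thinning. In fibroblast-like cells of Tumor 2 the thinned share was 3.47%, close to that of the epithelium of the same library.

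Of the pathway lists in epithelial-like cells, the NF-Y subunit Nfyc rose in Tumor against Prepuberty by 1.68 (SE 0.33, edgeR adjusted p = 0.0376), 1 of 7 transcription genes tested. Jak2 fell by 3.41 (SE 0.44, adjusted p = 0.0244), 1 of 8 interferon gamma signaling genes tested. With a library left out, Nfyc kept its call in 2 of 6 fits (without either Tumor library) and Jak2 in 4 of 6, not without Prepuberty 1 or Prepuberty 2. No listed gene passed against DCIS.

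Endothelial-like cells held more Cd74 than epithelial-like cells in most libraries. It measured 7.04 and 27.9 CPM in Prepuberty, 42.9 and 20.9 CPM in DCIS and 5.13 and 154 CPM in Tumor. In Tumor 2, all 84 UMIs of H2-Aa, H2-Ab1 and Cd74 came from 1 of 32 cells, and that cell held 30 UMIs of leukocyte genes. The tumor value thus describes 1 cell.

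The venous cluster, marked by Ackr1 and Selp, held Cd74 at 6.19 and 56.7 CPM in Prepuberty (14 and 95 UMIs) and 72.4 and 35.1 CPM in DCIS (116 and 42 UMIs). The other large endothelial-like cluster held it at 7.60 and 18.7 CPM in Prepuberty (26 and 97 UMIs) and 4.11 and 10.1 CPM in DCIS (5 and 16 UMIs), so the venous level was the higher one in 3 of these 4 libraries. In thinned cells a Cd74 UMI was seen in 0.882% and 3.67% of endothelial-like cells in Prepuberty and 6.46% and 2.22% in DCIS (1.71%, 5.52%, 12.5% and 6.78% without thinning), against 0.177% to 0.332% of fibroblast-like cells in the same 4 libraries. In Prepuberty 2, 51.0% of the UMIs of the 3 genes lay in cells with leukocyte UMIs, and in DCIS 1 it was 0%.

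Of 4 members tested in endothelial-like cells, 0 passed by edgeR in DCIS against Prepuberty, Tumor against DCIS and Tumor against Prepuberty, where 0%, 14% and 12.3% of all 10611 genes passed. At an unadjusted p under 0.05 there were 1, 0 and 2, and DESeq2 called 0, 0 and 1. The median log2 fold change of the 4 was 1.38, 0.77 and 1.97 beside -0.02, -0.01 and -0.02 over all genes. In Tumor 2, 1 cell held all UMIs of H2-Aa, H2-Ab1 and Cd74, so for these genes a fit without Tumor 1 rests on that cell. With cells that held leukocyte UMIs left out, 2 of 3 members tested fell in Tumor against DCIS (H2-Ab1 and Cd74), and without Tumor 1 the count was 1 against DCIS and 3 against Prepuberty, all higher. Irf8 rose in both tumor comparisons (log2 fold changes 2.28 and 2.08), with any 1 library left out as well, and the leukocyte genes Tyrobp and C1qb rose against Prepuberty (log2 fold changes 3.98 and 3.43), 2 of 3 tested. Tyrobp lost its call without Prepuberty 1 or Tumor 2, and C1qb was below the filter with any 1 library left out. Cd40, a co-stimulatory receptor, rose against DCIS by 3.26, and the cathepsin Ctss rose against Prepuberty by 2.85, calls kept in 2 of 6 and 1 of 6 fits with a library left out.

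Whether a member changed differently in 2 cell types was tested as an interaction, with the library as a block. The change of H2-DMb1 from Prepuberty to Tumor was lower in epithelial-like than in macrophage-like cells by 4.49 on the log2 scale (SE 1.31, edgeR adjusted p = 0.0753) and that of H2-DMa by 2.01 (SE 0.57, adjusted p = 0.0693). From DCIS to Tumor the differences were -3.52 (SE 1.13, adjusted p = 0.132) and -1.51 (SE 0.49, adjusted p = 0.137). With all libraries these missed the threshold, and whether they passed depended on the tumor libraries kept. In this pair of cell types 0.578% of genes passed for DCIS against Prepuberty, 2.12% for Tumor against DCIS and 3.5% for Tumor against Prepuberty. Without Tumor 1 the Prepuberty to Tumor difference of H2-DMb1 was -2.19 and passed. Without Tumor 2 those of H2-DMb1 (-6.76) and H2-DMa (-2.57) passed, and 4 members passed from DCIS to Tumor (H2-DMa, H2-DMb1, H2-Ab1 and Cd74), all lower in epithelial-like cells. These fits leave 1 tumor library, which is assumed to vary like the others. Between endothelial-like and macrophage-like cells no member passed with all libraries, where 0.376%, 2.88% and 2.4% of genes did. That count of 0 turned on the tumor libraries: H2-Aa, H2-Ab1 and Cd74 passed in both tumor comparisons without Tumor 1, higher in endothelial-like cells, and without Tumor 2 there were 5 (Tumor against DCIS) and 3 (Tumor against Prepuberty), all lower there. Without Tumor 1 the endothelial-like tumor values of H2-Aa, H2-Ab1 and Cd74 are those of 1 cell of Tumor 2, which also held leukocyte UMIs. Between epithelial-like and endothelial-like cells 0.0605%, 4.28% and 7.15% of genes passed in the same order. The fit called H2-DMb1 in Tumor against Prepuberty, but its endothelial counts (2 and 5 UMIs in Prepuberty, 0 and 7 in Tumor) were too low to be tested alone and it entered through its epithelial counts, so no difference is read from that call. No member passed in the other comparisons of this pair.

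Within single libraries the classical chains and Cd74 varied together from cell to cell. Over the macrophage-like cells of a library, Spearman's rho among H2-Aa, H2-Ab1 and Cd74 was 0.72 to 0.94, given as a description since cells of 1 library share its depth. Across the 55 sums of cell type and library, the genes most like the mean log2(CPM + 1) of H2-Aa, H2-Ab1, H2-Eb1 and Cd74, of 14381 compared, were Ly86 (Pearson's r = 0.91), the cathepsin Ctss (0.90), the co-stimulatory ligand Cd86 (0.89), Ms4a4c (0.88) and Ms4a6c (0.87). These sums share libraries and differ in depth, and no test was made.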

How the data were processed

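Single-cell suspensions of 6 C3(1)-Tag libraries were sequenced by the authors with 10x Genomics 3′ kits and counted with Cell Ranger 3.0.2, per the file headers. The deposited matrices give whole-number UMI counts, not normalized, for every gene in every cell. The build of that reference is not given in the sources used here, so positions come from GENCODE vM21 (GRCm38) by Ensembl identifier. The model was made on FVB/NJ, and reads of these polymorphic genes were set against a reference of another strain; the effect was not tested. Features named H2-Ea were not analysed here.

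Cells with at least 200 genes and a mitochondrial share under 10% were kept, 680 putative doublets were removed by Scrublet score (scanpy 1.11.5), and libraries were integrated and clustered with Seurat 5.3.0 in R 4.3.3 (2000 variable genes, class II genes left out, 20 dimensions, resolution 0.8). A cluster took a name with 3 or more markers in 25% of its cells at 2 times the level elsewhere. UMIs were summed per library and cell type (at least 10 cells; 5 for dendritic-like cells, which was added after the cell numbers were seen) and compared with edgeR 4.0.16 (quasi-likelihood, TMM, filterByExpr, 3 states in 1 fit), two-sided, with Benjamini-Hochberg adjustment over all genes tested and a threshold of 0.05. With 2 libraries in each group, exact permutation allows no p below 0.333, so none was run. Counting intervals are exact (95%), limits for 0 UMIs take 3 UMIs, and both cover counting error only. Alternatives included DESeq2 1.42.0, no filter, thinning, other clusters and each library left out. The fit was tested on simulated data.

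Some listed genes are not reported here. The members and gene lists were chosen with earlier results of these data known. Genes named are the members, listed pathway genes that passed (or up to 3 with the highest level in a list with none) and the 5 most alike genes; cluster-naming genes, Csf1r and the dendritic and plasmacytoid markers were named after their values were seen.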

Additional observations from a re-analysis of the deposited data

Results flagged for a closer look

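One value was singled out by the test of the cell type by state interaction, and it is not read as a difference between the types. For the change of H2-DMb1 from Prepuberty to Tumor, epithelial-like minus endothelial-like, the fit returned -3.92 on the log2 scale (SE 1.02, edgeR adjusted p = 0.0409, 2 libraries a state). Epithelial-like cells measured 7.60 and 9.63 CPM in Prepuberty and 1.94 and 21.8 CPM in Tumor. Endothelial-like cells measured 0.352 and 0.727 CPM in Prepuberty (2 and 5 UMIs) and 0 and 26.3 CPM in Tumor (0 and 7 UMIs). H2-DMb1 was too low to be tested in endothelial-like cells alone and entered this test through its epithelial counts. The 32 endothelial-like cells of Tumor 2 include 1 cell with all of that library's H2-Aa, H2-Ab1 and Cd74 UMIs and 30 leukocyte UMIs. The 7 H2-DMb1 UMIs of Tumor 2 also lay in 1 cell, so the endothelial-like tumor value rests on 1 cell. The difference was not tested without that cell. Without Tumor 2 the difference had the opposite sign, at 3.17 (SE 7.20), and did not pass, and without Tumor 1 it was -4.35. No state held enough libraries for a check of outlying libraries.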

How the results depend on the processing

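Counts of class II members that passed kept within 1.5 times of the value given in 163 of 207 alternatives. Most of these were counts of 0 that stayed at 0. Counts above 0, all in tumor comparisons, were less stable. Against DCIS and Prepuberty they kept within that limit in 6 of 15 and 9 of 15 alternatives in macrophage-like cells. In dendritic-like cells it was 2 of 3 and 2 of 3. With a library left out it was 3 of 6 and 1 of 6 in macrophage-like cells, and 2 of 6 and 3 of 6 in dendritic-like cells. In macrophage-like cells the count for Tumor against DCIS, 2, was 1 with 3 times as many doublets removed, with DESeq2, with sums thinned to the smallest library, with a mitochondrial limit of 5%, without cluster i12 and in cluster i0 alone. It was 0 at resolution 1.2 and in clusters i3 and i4 alone, and 0 to 2 with a library left out. For Tumor against Prepuberty, also 2, it was 1 with class II genes kept for clustering, at resolution 1.2, with only the libraries of the 2 states and in clusters i0 and i3 alone, 0 in cluster i4 alone, and 0 to 3 with a library left out. In epithelial-like cells the count of 0 became 1 for Tumor against Prepuberty with class II genes kept for clustering and in clusters 3 and 10 alone, and reached 0 to 1 against DCIS and 0 to 2 against Prepuberty with a library left out. In endothelial-like cells no filter gave 3 for DCIS against Prepuberty and 4 for Tumor against Prepuberty, DESeq2 gave 1 for the latter, leaving out cells with leukocyte UMIs gave 2 and clusters without integration gave 1 for Tumor against DCIS, and libraries left out gave 0 to 1 against DCIS and 0 to 3 against Prepuberty. In dendritic-like cells no filter gave 2 against DCIS and 3 against Prepuberty, with 1 to 4 and 1 to 6 over the libraries left out. Members whose change differed between cell types numbered 0 to 4 (Tumor against DCIS) and 1 to 2 (Tumor against Prepuberty) for epithelial-like against macrophage-like cells without either Tumor library, 3 to 5 and 3 for endothelial-like against macrophage-like, and 0 to 1 and 0 to 2 for epithelial-like against endothelial-like. The causes were not tested, except that fewer samples enter a fit with a library left out.

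Signs turned for Tumor against Prepuberty in macrophage-like cells: in cluster i4 alone the log2 fold change was -1.63 for H2-Aa, -1.67 for H2-Ab1 and -1.22 for Cd74, and with clusters made without integration it was -0.36 for H2-Eb1. With a library left out it ranged from -0.50 to 1.24 for H2-Aa, -0.14 to 1.88 for H2-Ab1, -0.42 to 1.59 for H2-Eb1 and -0.43 to 1.29 for Cd74. The negative value without Tumor 1 was seen in all 4. H2-DMb1 kept its direction in macrophage-like cells in every alternative that tested it, at 1.99 to 6.08 against DCIS and 0.31 to 5.97 against Prepuberty. With TMM factors, 57 of 63 mean levels moved by less than 1 SD between libraries.

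Replicate numbers were not taken as a pairing of the samples. Deviations of same-numbered libraries correlated at 0.34 over genes for DCIS and Prepuberty in endothelial-like cells and at -0.08 to 0.07 elsewhere. These values do not settle whether same-numbered libraries share a batch. With the replicate block the counts in macrophage-like cells stayed at 2 and 2, and H2-DMb1 changed by 2.86 and 3.71. In epithelial-like and endothelial-like cells the block left 0 members in each comparison, and in dendritic-like cells it gave 4 and 6. No macrophage-like cluster had neutrophil or dendritic markers among its leading genes, so that alternative gave no value. All genes that passed ranged from 26 to 993 for Tumor against DCIS and 96 to 815 for Tumor against Prepuberty in macrophage-like cells over alternatives other than libraries left out (287 and 311 as given), 0 to 2011 and 0 to 2725 in epithelial-like cells (147 and 799), 604 to 2354 and 560 to 2195 in endothelial-like cells (1482 and 1302) and 125 to 291 and 101 to 186 in dendritic-like cells (259 and 164). For DCIS against Prepuberty they ranged from 0 to 242, 0 to 701, 0 to 458 and 0 to 7. Depth limits Ciita, with 55 UMIs over all macrophage-like cells, and H2-Eb1, with 198. In fibroblast-like cells, counts of members that passed, 2 and 1 in the tumor comparisons, were 0 to 2 and 0 to 3 with a library left out, 3 and 4 with no filter and 2 and 2 with the replicate block, and for DCIS against Prepuberty no filter gave 2 in place of 0.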
